A study of Sus scrofa with 37 samples.

Results

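Expression of the genes for calcium channels, calcium pumps and sodium-calcium exchangers was examined in pig pancreas and in cultured pig islets. The genes were chosen by symbol, as rows of both count tables whose Ensembl identifier maps to one of 9 names, and 8 of the 25880 gene rows were members: CACNA1A, CACNA1D, CACNA1H, CACNB2, SLC8A1, SLC8A3, ATP2A2 and ATP2A3. The remaining name, CACNA1C, had no row and is not analysed here. Each pancreas sample was a 50 mg piece of parenchyma from the duodenal lobe, and each islet sample was islets purified from the organ and kept free-floating in culture for 7 days. Samples carried an islet density label of High or Low, and how density was scored is not given in the sources used here. Total RNA of 35 libraries was counted: 8 pancreas libraries labelled High, 9 labelled Low, 8 islet libraries labelled High, 9 labelled Low and 1 islet library (animal 12AS51) with no density label. The animal codes show a different animal for every library of a tissue, and 16 animals gave both tissues. Of the 15 animals with a labelled library in both tissues, 4 had labels that differed between the tissues. Animal 15LS30 (Low pancreas replicate 9) was also labelled High in islets, but its islet sample has no counts. The labels give no strain, age or sex.

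Insulin release is coupled to calcium: closure of ATP-sensitive potassium channels depolarizes the beta cell, voltage-gated calcium channels open, and the calcium that enters triggers exocytosis. Calcium is then cleared into the endoplasmic reticulum by SERCA pumps and across the plasma membrane by calcium pumps and sodium-calcium exchangers. Acinar cells, which make up most of the pancreas, drive enzyme secretion mainly with calcium released from the endoplasmic reticulum and refill that store with SERCA pumps.

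Levels are given as CPM, the reads of a gene per 1000000 reads counted in that library, with no correction for gene length, so levels were compared between libraries and not between genes. Islet libraries held 3237653 to 6702589 counts and High pancreas libraries 1855075 to 3922006. Of the 9 Low pancreas libraries, 7 (replicates 1 and 3 to 8) held only 265000 to 536014 counts, so 3 counts, taken as the detection floor, were worth 5.60 to 11.3 CPM there against 0.765 to 1.62 CPM in the 10 deeper pancreas libraries. The other two Low libraries, replicates 2 and 9, held 2234639 and 1884982 counts. All 6 animals whose code begins with 14 were labelled Low in both tissues, and their pancreas libraries were among the 7 shallow ones, so animal code, depth and density label cannot be told apart within pancreas. Marker genes matched the labelled tissues, with all 9 pan-endocrine markers measured higher in islets (log2 fold changes of 4.05 to 5.79) and all 10 acinar markers lower. The islet library with no density label stood apart: a single gene took 43.5% of its counts, against at most 25.7% in the other islet libraries, and its pan-endocrine marker sum was 5548 CPM against 13151 to 24604 CPM. In bulk samples such as these, fewer cells of a type and less RNA per cell cannot be told apart.

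All 8 members were higher in islets than in pancreas, by 2.09-fold for ATP2A2 to 7.43-fold for CACNB2 in edgeR's quasi-likelihood test over 18 islet and 17 pancreas libraries. Among the 12339 genes tested, 31.1% were higher and 31.5% lower in islets at a Benjamini-Hochberg adjusted p under 0.05. A stricter test of a change beyond 2-fold called 23.3% of all genes and 6 of the 8 members, the exceptions being SLC8A1 (adjusted p = 0.0851) and ATP2A2 (adjusted p = 0.5). The median log2 fold change was 1.99 for the 8 members and -0.01 for all genes tested. Scaling by library totals alone moved the median of all genes to 0.47 and the split of calls from 3834 higher and 3892 lower to 5482 and 2242. Upper-quartile scaling moved the median to -0.14, and all 8 members were called higher under both scalings.

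**Figure D1:**
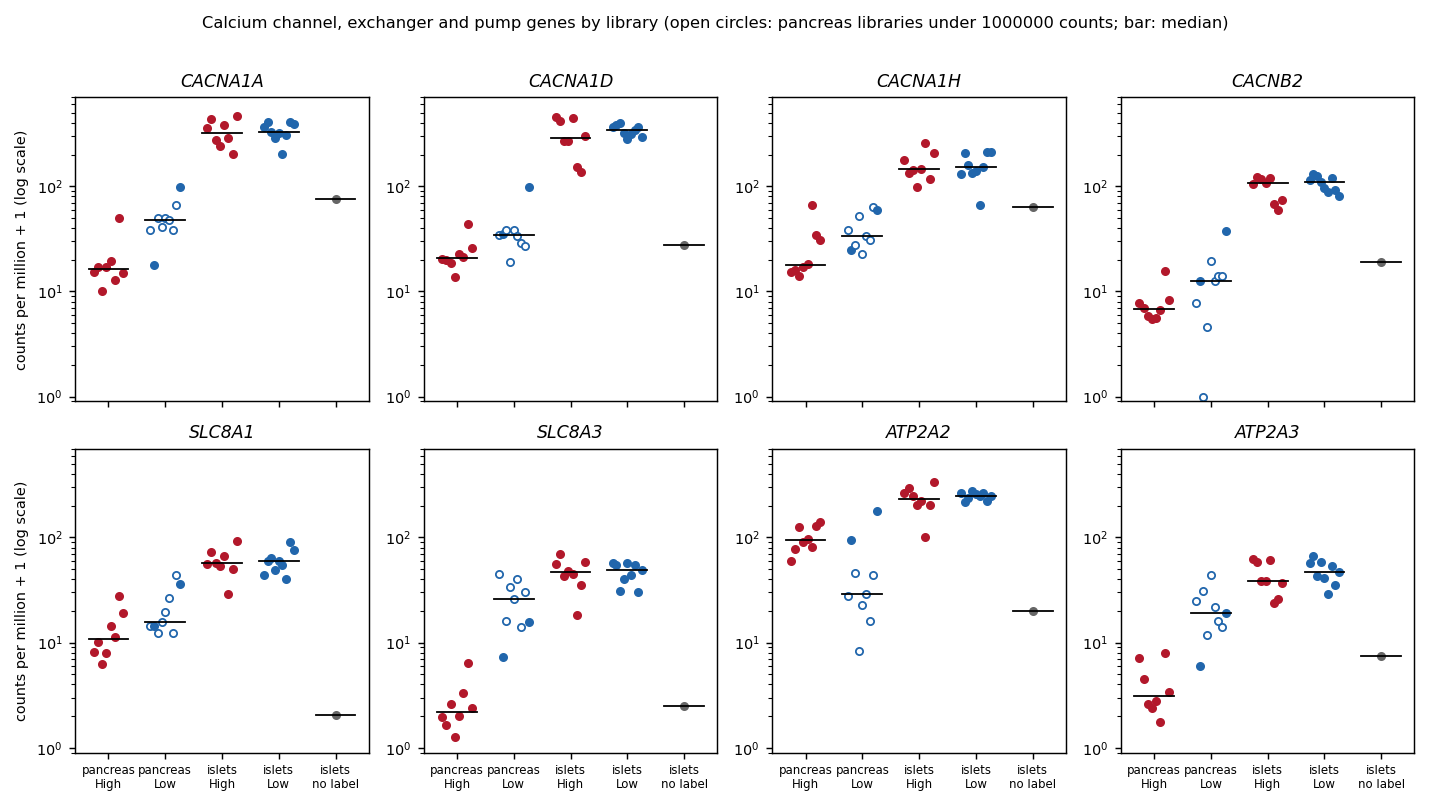
CPM plus 1 (log axis) of the 8 members in each of 35 libraries, by tissue and density label, where each circle is a library, open circles are the 7 pancreas libraries under 1000000 counts and bars are group medians. Labelled islet libraries sit above every pancreas library for CACNA1A, CACNA1D, CACNA1H and CACNB2, and the 2 density groups of islets overlap for every member. The share of all genes with such a separation was not computed.

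The pore-forming subunits carry the calcium current. CACNA1A encodes the pore of P/Q-type channels, which in nerve terminals and endocrine cells couple to exocytosis. Its lowest, median and highest levels were 74.7, 326 and 466 CPM in islets and 9.11, 37.1 and 98.1 CPM in pancreas. The lowest islet value belonged to the library with no density label, and the 17 labelled islet libraries (202 CPM and above) lay clear of every pancreas library. The log2 fold change of CACNA1A was 2.87 (SE 0.26, edgeR adjusted p = 1.2e-12).

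CACNA1D, the pore of an L-type channel that opens at relatively negative voltages, ranged from 26.9 to 454 CPM in islets around a median of 315 CPM. In pancreas it ranged from 12.8 to 97.1 CPM around a median of 26.2 CPM. Without the unlabelled library the lowest islet level was 136 CPM, above all 17 pancreas libraries. Its log2 fold change was 2.82 (SE 0.18, edgeR adjusted p = 9.4e-17). In the RefSeq annotation CACNA1D overlaps CHDH, which had a log2 fold change of -1.04 (mean 16.6 CPM in islets and 22.3 CPM in pancreas). Since no strand setting is stated, reads from the stretch where the pair overlaps cannot be told apart.

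CACNA1H encodes a T-type, low-voltage-activated pore. Its islet levels ran from 63.0 to 258 CPM (median 144) and its pancreas levels from 13.0 to 65.6 CPM (median 29.6). The separation was narrow, since the lowest labelled islet library, Low replicate 6, had 65.7 CPM and the highest pancreas library, High replicate 6, had 65.6 CPM. On the TMM scale used in the test these 2 groups overlapped. CACNA1H differed by a log2 fold change of 2.0 (SE 0.27, edgeR adjusted p = 2.12e-08).

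CACNB2 encodes an auxiliary beta subunit, which brings pore subunits to the membrane and tunes their gating. It was measured at 17.9 to 130 CPM in islets (median 106) and at 0 to 36.6 CPM in pancreas (median 6.75). Low pancreas replicate 3 had no count, which allows up to 11.3 CPM in that library. With a log2 fold change of 2.89 (SE 0.22, edgeR adjusted p = 7.54e-15), CACNB2 stood within 1 SE of CACNA1A and CACNA1D. It overlaps an uncharacterized gene in the RefSeq annotation, with the same limit on assigning reads.

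The exchangers use the sodium gradient to expel calcium. SLC8A1, the widely expressed exchanger NCX1, ranged from 1.04 to 91.8 CPM in islets (median 55.6) and from 5.20 to 42.6 CPM in pancreas (median 13.5). The groups overlapped by library totals even among labelled islet libraries, whose lowest value was 28.1 CPM in High replicate 6. On the TMM scale the labelled islet libraries (34.3 CPM and above) lay clear of pancreas (up to 27.5 CPM). SLC8A1 had a log2 fold change of 1.30 (SE 0.21, edgeR adjusted p = 6.62e-07).

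SLC8A3 encodes NCX3, an exchanger best known from brain and skeletal muscle. Its islet levels were 1.49 to 68.0 CPM (median 45.8), and its pancreas levels were 0.278 to 43.9 CPM (median 6.26). Within pancreas the 7 shallow libraries had 13.1 to 43.9 CPM, and the 10 deeper ones had 0.278 to 14.9 CPM, none of which reached the lowest labelled islet value of 17.3 CPM. The log2 fold change of SLC8A3 was 1.92 (SE 0.45, edgeR adjusted p = 0.000292) over all libraries and 3.39 (SE 0.31) without the shallow libraries. Among libraries labelled High it was 4.28 (SE 0.29), and among those labelled Low 0.44 (SE 0.33, edgeR adjusted p = 0.251), so that the call was lost there.

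The SERCA pumps return cytosolic calcium to the endoplasmic reticulum. ATP2A2 encodes SERCA2, present in most cells. It ranged from 19.1 to 335 CPM in islets (median 247) and from 7.28 to 179 CPM in pancreas (median 76.4), and labelled islet libraries (100 CPM and above) overlapped with pancreas. The log2 fold change of ATP2A2 was 1.07 (SE 0.21, edgeR adjusted p = 3.59e-05), the smallest of the 8 over all libraries, and 0.63 (SE 0.11) without the shallow ones. Its annotated neighbour ANAPC7, which overlaps it, had a log2 fold change of 0.06 (edgeR adjusted p = 0.793).

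ATP2A3 encodes SERCA3, which has a lower calcium affinity and is typical of beta cells, endothelium, epithelia and blood cells. It ranged from 6.42 to 66.2 CPM in islets (median 41.3) and from 0.763 to 43.2 CPM in pancreas (median 7.01). As for SLC8A3, the overlap with labelled islet libraries came from the shallow libraries (10.9 to 43.2 CPM). The 10 deeper pancreas libraries (0.763 to 18.04 CPM) lay below the lowest labelled islet value of 22.5 CPM. For both genes the islet library with no density label fell within the range of the deeper pancreas libraries. The log2 fold change was 1.98 (SE 0.35, edgeR adjusted p = 6.2e-06) over all libraries. It was 2.87 (SE 0.28) without the shallow libraries and 0.78 (SE 0.31) among libraries labelled Low.

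The rest of the calcium machinery was described with a list of 82 other genes grouped by role, of which 76 had a row and 59 were tested between the tissues. Beside 31.1% higher and 31.5% lower among all 12339 genes tested, 32 of these 59 were higher in islets and 12 lower. Their median log2 fold change was 0.56, against -0.01 for all genes tested. Among the largest rises were those of ABCC8 (3.92, SE 0.27), the sulfonylurea receptor of the ATP-sensitive potassium channel, and SLC24A2 (3.17, SE 0.30), a potassium-dependent sodium-calcium exchanger. The largest falls were those of SLC24A3 (-5.08, SE 0.37), a related exchanger, TRPM2 (-4.84, SE 0.40), a calcium-permeable cation channel, and RYR3 (-3.89, SE 0.59), a calcium release channel, all with an edgeR adjusted p of 4.29e-07 or less.

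By role, 4 of 6 tested exchangers were higher in islets (SLC24A1, SLC24A2, SLC24A5 and SLC8A2) and the other two, SLC24A3 and SLC8B1, were lower. Among other calcium pumps ATP2B1, ATP2B2, ATP2C1 and ATP2C2 were higher and ATP2B4 was lower. Of 3 other pore subunits tested only CACNA1B, the N-type pore, passed, and it was higher. Among 6 auxiliary subunits CACNA2D1 was higher, and CACNA2D3 and CACNB1 were lower. Endoplasmic reticulum release channels went both ways, with ITPR1 and RYR2 higher and ITPR2 and RYR3 lower. Of 7 genes of store-operated entry, ORAI1, ORAI2, SARAF and STIM1 were higher and STIMATE was lower.

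Within pancreas, 6 members were lower in libraries labelled High than in those labelled Low and ATP2A2 was higher, in edgeR's test of 8 against 9 libraries. Of the 10634 genes tested, 18.8% were higher and 21.5% lower in High. The split of calls, 1998 higher and 2285 lower, became 1467 and 2772 with upper-quartile scaling, which moved the median of all genes from 0.07 to -0.11, and 570 and 1972 with library totals only. With library totals only, 5 members were called, and ATP2A2 (0.84, edgeR adjusted p = 0.159) and SLC8A1 (-0.86, edgeR adjusted p = 0.0898) were not. Upper-quartile scaling called all 8, CACNA1H (-0.86, edgeR adjusted p = 0.0383) included. The largest differences were those of SLC8A3 (log2 fold change -4.01, SE 0.50, edgeR adjusted p = 2.92e-05) and ATP2A3 (-2.73, SE 0.47, edgeR adjusted p = 0.000179), the only members past the test of a change beyond 2-fold. The low-count filter can be met by the libraries of a single group. SLC8A3 and ATP2A3 reached at most 5.39 and 7.01 CPM in High pancreas and met it largely through the Low group. Their calls as lower in High are therefore not independent of the filter. Without the 7 shallow Low libraries, with 8 High and 2 Low libraries left, no member passed (5 of 8 at an unadjusted p under 0.05) and none of 13217 genes passed either (1222 at an unadjusted p under 0.05). With log2 library total or the acinar marker level as a covariate, no member and no gene passed either, with 4 and 3 members, and 533 and 516 genes, at an unadjusted p under 0.05.

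**Figure D2:**
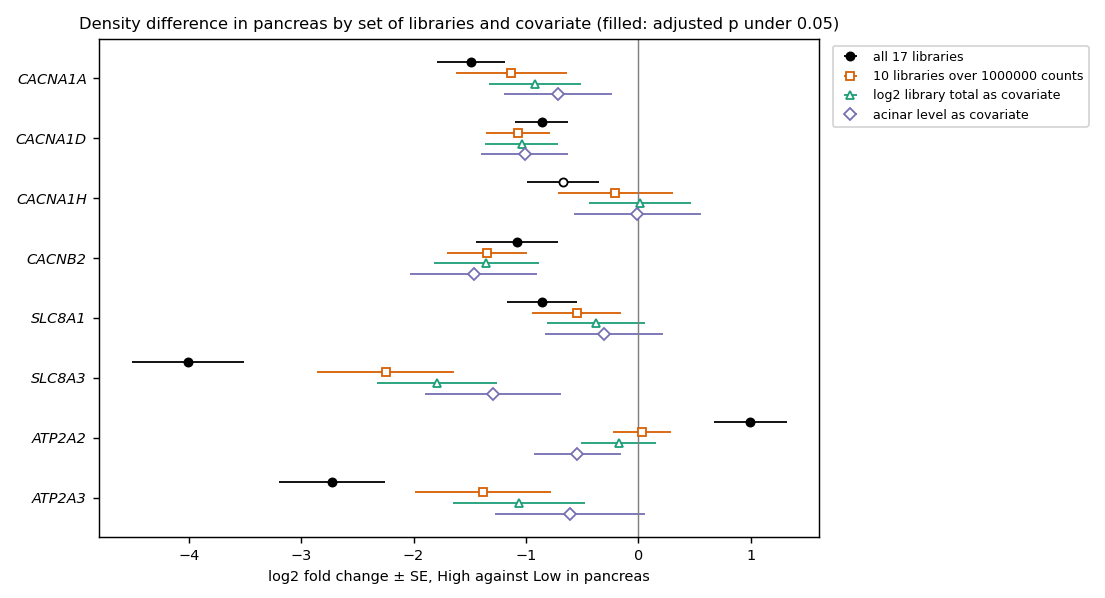
Log2 fold change of High against Low in pancreas (horizontal axis, with SE bars) for each member over all 17 libraries, over the 10 libraries above 1000000 counts, and with log2 library total or acinar marker level as a covariate; filled symbols passed an adjusted p of 0.05. SLC8A3 moves from -4.01 to -2.25 and ATP2A2 from 1.0 to 0.03 when the shallow libraries are left out, and no symbol is filled outside the fit of all 17 libraries.

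SLC8A3 was measured at 0.278, 1.20 and 5.39 CPM (lowest, median, highest) in High pancreas, which is 1 to 10 counts per library. In Low pancreas it was measured at 6.26, 24.7 and 43.9 CPM, or 4 to 28 counts. It was the only member whose High and Low pancreas levels did not overlap, and the share of all genes without overlap was not computed. Both deeper Low libraries also lay above all High libraries, at 6.26 CPM (replicate 2, 14 counts) and 14.9 CPM (replicate 9, 28 counts). Without the shallow libraries its log2 fold change was -2.25 (SE 0.61, edgeR adjusted p = 0.329).

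ATP2A3 was measured at 0.763, 2.10 and 7.01 CPM in High pancreas and at 4.92, 18.04 and 43.2 CPM in Low pancreas. The groups overlapped through Low replicate 2, the lowest of its group, while the shallow libraries (3 to 14 counts each) all lay above the High group by library totals. On the TMM scale the shallow libraries (from 8.23 CPM) overlapped with High (up to 8.58 CPM). Without the shallow libraries the log2 fold change of ATP2A3 was -1.38 (SE 0.60, edgeR adjusted p = 0.482).

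ATP2A2, the other SERCA gene, went the opposite way. Its levels were 58.0, 93.1 and 139 CPM in High pancreas and 7.28, 27.9 and 179 CPM in Low pancreas. The shallow libraries (2 to 13 counts, at most 45.3 CPM) lay below every High library, while Low replicates 2 and 9 had 94.4 and 179 CPM. Its log2 fold change was 1.0 (SE 0.32, edgeR adjusted p = 0.017) over all libraries and 0.03 (SE 0.25) without the shallow ones. It turned to -0.17 with log2 library total and to -0.54 with acinar level as a covariate.

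The channel genes had smaller fold changes. CACNA1A had 9.11, 15.3 and 49.1 CPM in High and 17, 46.4 and 98.1 CPM in Low pancreas, with a log2 fold change of -1.49 (SE 0.30, edgeR adjusted p = 0.000666). CACNA1D had 12.8, 19.7 and 43.1 CPM in High and 18.2, 33.8 and 97.1 CPM in Low, with a log2 fold change of -0.86 (SE 0.23, edgeR adjusted p = 0.0058). Both overlapped between the groups, and Low replicate 9 was the highest pancreas library for each. Without the shallow libraries CACNA1A changed by -1.13 (SE 0.49) and CACNA1D by -1.07 (SE 0.28), the direction kept and the call lost.

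CACNB2 had 4.45, 5.87 and 14.6 CPM in High and 0, 11.6 and 36.6 CPM in Low pancreas. Its log2 fold change was -1.08 (SE 0.36, edgeR adjusted p = 0.0207), and -1.35 (SE 0.36) without the shallow libraries. The call was lost on leaving out High replicate 4 (edgeR adjusted p = 0.0642) or Low replicate 9 (edgeR adjusted p = 0.0751).

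SLC8A1 had 5.20, 9.75 and 26.4 CPM in High and 11.2, 14.6 and 42.6 CPM in Low pancreas, with a log2 fold change of -0.86 (SE 0.31, edgeR adjusted p = 0.0318). Its call was lost on leaving out any one of 7 libraries, High replicates 1, 2, 3, 4 and 6 and Low replicates 6 and 8, with edgeR adjusted p up to 0.105. CACNA1H had 13.0, 16.7 and 65.6 CPM in High and 21.6, 32.5 and 62.2 CPM in Low, and did not pass (log2 fold change -0.67, SE 0.32, edgeR adjusted p = 0.0955). The highest CACNA1H value of all pancreas libraries lay in the High group, in replicate 6. CACNA1H passed without that library (-0.95, edgeR adjusted p = 0.0079) or without Low replicate 2 (-0.86, edgeR adjusted p = 0.026).

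Cell type markers moved with these libraries. The summed level of 10 acinar markers was 132233 to 226376 CPM in High pancreas, 76758 and 98745 CPM in the deeper Low libraries and 9749 to 23730 CPM in the shallow ones, and all 10 were called higher in High. The 4 of 8 cardiac and skeletal muscle markers with a row, none of them at 0 throughout the shallow libraries, summed to 20.5 to 49.4 CPM in the shallow libraries, against 0 to 7.01 CPM in every other pancreas library. The 9 pan-endocrine markers summed to 109 to 246 CPM in the shallow libraries, against 166 to 894 CPM in High pancreas, and 3 of 8 tested were called lower in High. Beta cell markers (5 genes) summed to 74.2 to 314 CPM against 282 to 1714 CPM, with 0 of 3 tested called. Alpha cell markers (4 genes) summed to 48.7 to 87.7 CPM against 93.1 to 515 CPM, with 0 of 1 tested called. Delta and PP cell markers (3 genes) summed to 13.5 to 49.1 CPM against 10.3 to 42.2 CPM, with 1 of 2 tested lower in High. Low replicate 9, where many members were highest, had a pan-endocrine sum of 4458 CPM, above all other pancreas libraries, and with the pan-endocrine level as a covariate the same number of members, 7, was called. Summed lymphocyte and leukocyte markers (7 genes) ran from 36.4 to 120 CPM in the shallow libraries and from 8.89 to 61.6 CPM in High pancreas, and 0 of 1 tested was called. Myeloid markers (6 genes) ran from 74.6 to 176 CPM against 30.1 to 144 CPM in High, with 3 of 5 tested lower in High. Neural and Schwann markers (6 genes) ran from 18.7 to 83.0 CPM against 6.67 to 38.3 CPM, with 1 of 1 tested lower in High. Platelet markers (2 genes) ran from 2.32 to 34.0 CPM against 0 to 5.93 CPM. The median platelet sum of the shallow libraries was 6.17 CPM, where 3 counts were worth 5.60 to 11.3 CPM. Platelet and cardiac and skeletal muscle sums therefore rest on few counts there. Of 7 smooth muscle markers tested 4 were lower in High, and 4 of 6 ductal markers were higher. The part of muscle, blood cell and neural markers in these results was not tested.

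Of 76 other calcium handling genes with a row, 53 were tested between the pancreas groups. Beside 18.8% higher and 21.5% lower among all 10634 genes tested, 9 of these 53 were higher and 26 lower in High. The highest were SARAF (log2 fold change 1.52, SE 0.36), a brake on store-operated entry, CALM2 (1.44, SE 0.42), a calmodulin gene, and PPP3CA (1.13, SE 0.28), the catalytic subunit of calcineurin. The lowest were CACNA1I (-4.64, SE 0.72) and CACNA1G (-4.48, SE 0.69), both T-type pores, and SLC24A4 (-4.19, SE 0.70), a potassium-dependent exchanger. CACNA1I reached at most 5.93 CPM in High pancreas and 4.03 to 49.4 CPM in Low. All 5 other pore subunits and all 6 other exchangers tested were called lower in High, beside 21.5% of all genes tested. CACNA1G, CACNA1I and SLC24A4 passed the low-count filter here but not between the tissues or within islets. The filter can be met by the Low group alone, so the direction of such low-level genes is not independent of it. None of these genes passed without the shallow libraries.

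The share of each paralog in its pair was computed within a library, where total depth cancels. ATP2A3 made up 0.94% to 9.50% of ATP2A2 and ATP2A3 counts in the 10 deeper pancreas libraries and 9.61% to 23.5% in the 17 labelled islet libraries, so the 2 sets did not overlap, though by a narrow margin. In the shallow pancreas libraries the share was 23.5% to 66.7%, on 5 to 21 counts each. For the lowest of these, Low replicate 8 with 4 of 17 counts, the 95% Wilson interval was 9.56% to 47.3%. The interval covers counting error only.

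SLC8A3 made up 3.85% to 31.8% of SLC8A1 and SLC8A3 counts in deeper pancreas libraries and 25.1% to 58.0% in labelled islets. High pancreas (3.85% to 23.8%) lay below both deeper Low libraries, which had 31.8% (14 of 44 counts, 95% Wilson interval 20.0% to 46.6%) and 29.8% (28 of 94, 21.5% to 39.7%). The shallow libraries had 40.9% to 76.5% on 7 to 28 counts. In islets the share did not order with the density label, with means of 43.3% ± 4.70 (SD, n = 8) in High and 44.2% ± 10.8 (SD, n = 9) in Low.

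**Figure D3:**
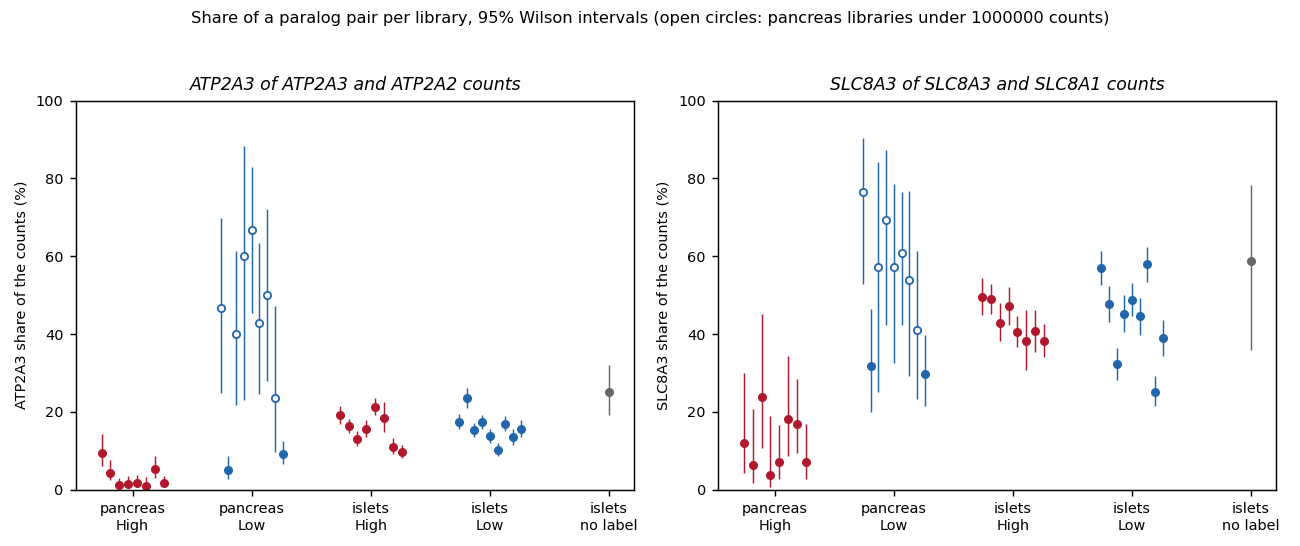
Share (%) of ATP2A3 in the sum of ATP2A3 and ATP2A2 counts and of SLC8A3 in the sum of SLC8A3 and SLC8A1 counts for each of 35 libraries by group, with 95% Wilson intervals; open circles are pancreas libraries under 1000000 counts. The ATP2A3 share is 0.94% to 9.50% in the deeper pancreas libraries and 23.5% to 66.7% in the shallow ones, where the intervals are wide.

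Within islets no member passed the test between the density labels. The comparison of 8 High with 9 Low libraries tested 12070 genes and called 0 of them (0%) with edgeR, with 257 at an unadjusted p under 0.05, and DESeq2 and limma-voom called 0 as well (297 and 255 unadjusted). No member reached an unadjusted p of 0.05. Log2 fold changes of the members ran from -0.08 for CACNA1D to 0.23 for CACNA1H, with SEs of 0.10 to 0.26. Approximate 95% intervals of the fold change were narrowest for ATP2A2 (0.859 to 1.14-fold) and widest for CACNA1H (0.821 to 1.67-fold). For the other six members these intervals lay between 0.754-fold (ATP2A3) and 1.30-fold (CACNA1A).

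Mean levels in High and Low islets were 330 ± 93.8 and 336 ± 67.5 CPM (SD, n = 8 and 9) for CACNA1A. They were 305 ± 124 and 340 ± 40.6 CPM for CACNA1D and 159 ± 52.1 and 157 ± 48.2 CPM for CACNA1H. Those of CACNB2 were 95.8 ± 25.5 and 106 ± 17.7 CPM. The ranges of the 2 groups overlapped for each of these genes, and High replicates 6 and 7 were the lowest in CACNA1D.

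The exchangers and pumps also had overlapping ranges. SLC8A1 had 58.7 ± 18.3 CPM in High and 58.6 ± 15.7 CPM in Low islets, and SLC8A3 had 45.5 ± 15.4 and 45.5 ± 10.6 CPM. ATP2A2 had 233 ± 71.0 and 247 ± 19.6 CPM, and ATP2A3 had 42.0 ± 15.5 and 46.9 ± 12.1 CPM. The wider High spread of ATP2A2 came from replicate 6 (animal 15AS28) at 100 CPM and replicate 8 at 335 CPM. High replicate 6 was also the lowest labelled islet library for SLC8A1, SLC8A3 and ATP2A3 and the highest for CACNA1H, and it was the library in which 1 gene took 25.7% of the counts.

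**Figure D4:**
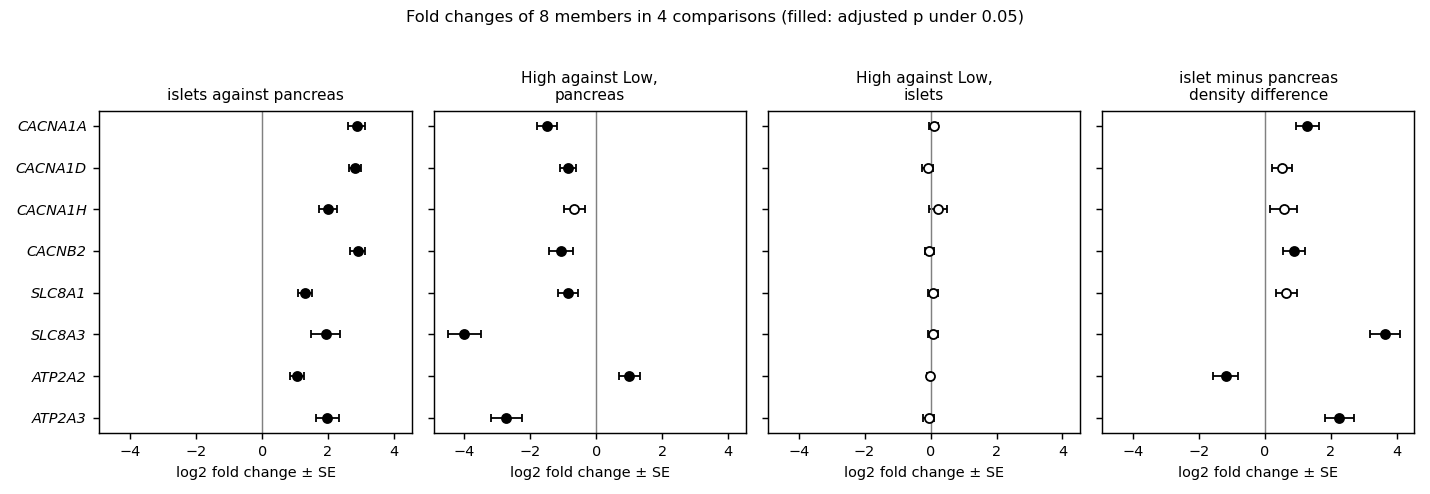
Log2 fold change with SE (horizontal axis) of the 8 members in 4 comparisons, filled where the adjusted p was under 0.05. All 8 points are above 0 for islets against pancreas, 7 of 8 are filled for High against Low in pancreas, and none is filled in islets, where values run from -0.08 to 0.23.

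The interaction of density label and tissue (High minus Low in islets, less High minus Low in pancreas) was tested over the 34 labelled libraries, in which 39.9% of 14337 genes were called, 3183 positive and 2535 negative (3995 and 1670 with upper-quartile scaling, 3301 and 746 with library totals only). Of the members, 5 were called: SLC8A3 (log2 difference 3.65, SE 0.46, edgeR adjusted p = 1.9e-06), ATP2A3 (2.25, SE 0.44, edgeR adjusted p = 0.000288), CACNA1A (1.29, SE 0.35, edgeR adjusted p = 0.00415), CACNB2 (0.89, SE 0.34, edgeR adjusted p = 0.0353) and ATP2A2 (-1.18, SE 0.38, edgeR adjusted p = 0.0134). CACNA1D (0.52, SE 0.32), CACNA1H (0.58, SE 0.41) and SLC8A1 (0.66, SE 0.32) did not pass. With the animal as a replicate block, CACNB2 fell to 0.22 (edgeR adjusted p = 0.763) and SLC8A1 reached 1.14 (edgeR adjusted p = 0.0324). That fit kept only the 15 animals with a labelled library in both tissues. It left out Low pancreas replicate 9, the highest pancreas library for CACNB2 (36.6 CPM), so the pairing and the set of libraries changed together. SLC8A1 (0.91, edgeR adjusted p = 0.0255) and CACNA1D (0.80, edgeR adjusted p = 0.0308) passed with upper-quartile scaling, and ATP2A2 did not with library totals only (-0.90, edgeR adjusted p = 0.148). SLC8A3 was the 1 member that passed without the shallow pancreas libraries (2.29, SE 0.46, edgeR adjusted p = 0.021), where 61 of 15210 genes were called, and without the animals whose code begins with 14 (3.09, SE 0.61, edgeR adjusted p = 0.0467), where 9 of 14530 were. Without the shallow libraries only 2 Low pancreas libraries remained, with 14 and 28 SLC8A3 counts, and the test within pancreas alone did not call SLC8A3 there.

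Beside 39.9% of all genes called in either direction, 28 of the 69 other calcium handling genes tested for this difference were positive and 10 negative. None of these calcium handling genes passed without the shallow libraries. The largest were CACNG7 (5.80, SE 1.06), an auxiliary subunit, CACNA1S (5.17, SE 1.35), the pore of skeletal muscle, and SLC24A4 (5.08, SE 1.31). Their highest islet levels were 3.81, 0.943 and 1.63 CPM, so these values rest on few counts. The lowest were SARAF (-1.74, SE 0.42), PPP3CA (-1.59, SE 0.33) and CALM2 (-1.49, SE 0.49). With library totals only CALM2 passed neither here nor within pancreas.

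Ordered by median CPM, the levels of 7 members ran from High pancreas through Low pancreas to the islet groups, and ATP2A2 had Low pancreas lowest. On the TMM scale the CACNA1D medians of High and Low pancreas were 26.8 and 26.6 CPM, in reversed order. Neighbouring islet groups overlapped for all 8 members, and neighbouring pancreas groups overlapped for all but SLC8A3. Among the 17 labelled islet libraries the members varied to different degrees. On the TMM scale the coefficient of variation was 14.5% for ATP2A2 and 40.1% for CACNA1H, whose highest library had 5.18 times the lowest, and 18.9% to 26.1% for the other six members. The highest CACNA1H level was that of High replicate 6 (332 CPM). Without that library, an exclusion chosen after seeing the data, its coefficient of variation was 24.5% and its highest library had 2.90 times the lowest.

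Members also differed in how they moved together across these 17 libraries, on log2 CPM with TMM scaling. CACNA1A and CACNA1H had a Pearson correlation of 0.71 (Spearman 0.67), and CACNA1D and ATP2A3 of 0.70 (Spearman 0.74). Without the 2 libraries farthest from the median of CACNA1A, or of ATP2A3 for the second pair, the Pearson values were 0.63 and 0.64. ATP2A2 and CACNA1H had -0.64 (Spearman -0.38), but a Pearson value of -0.23 without the 2 libraries farthest from the ATP2A2 median, so that this relation rested largely on them. Each point is a library, and all values of a library share its scaling factor and depth.

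The genes whose levels were most like each member over all 18 islet libraries were named by Pearson correlation, and these are descriptions of likeness only. For CACNA1A they were PACSIN2 (0.93) and KIF12 (0.92), and for CACNA1H they were MINK1 (0.96) and ABCA2 (0.95). For CACNA1D they were RBFOX2 (0.89) and a gene without a symbol (0.86), and for CACNB2 another gene without a symbol (0.89) and KRT80 (0.88). SLC8A1 was nearest to CFAP54 and PPM1E (both 0.95) and SLC8A3 to REL (0.95) and GGNBP2 (0.91). ATP2A2 was nearest to TMEM170B and GPR158 (both 0.89) and ATP2A3 to ABTB3 (0.84) and CDK15 (0.82). Several of these rest on the library with no density label: without it SLC8A1 had 0.74 with CFAP54 and 0.77 with PPM1E, while CACNA1D with RBFOX2 remained at 0.89.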

How the data were processed

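The authors deposited unnormalized gene-level read counts, 1 table for pancreas and 1 for islets. Tools and build per the submitters' processing notes were FastQC, HISAT2 2.0.2, Subread, edgeR and susScr3. How reads were counted, on which strand and with which annotation is not given in the sources used here. Of 25880 identifiers, 14857 matched a symbol. The animal code and tissue in a column's name gave its sample, which left 1 column unmatched and unused and 2 islet samples labelled High without a column. The source name of 2 islet samples (animals 11KS28 and 12AS51) reads pancreas, and their titles were followed.

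CPM used the column totals. Tests used edgeR 4.0.16 in R 4.3.3 on the counts as deposited, with filterByExpr, TMM scaling, the robust quasi-likelihood test and glmTreat at 2-fold, all two-sided with Benjamini-Hochberg adjustment over every gene tested, at 0.05. SE is the absolute log2 fold change divided by the square root of F. All 8 members passed the filter in all 4 comparisons. The fits were tested on simulated data. Alternatives were DESeq2 1.42.0, limma 3.58.1 (voom), other scalings and filters, sets of libraries, covariates, each library left out, and the animal as a replicate block, since libraries with one code come from one animal. Fits with the animal as a block kept only animals with both tissues and, for the difference between tissues, a label in both. Deviations from the tissue means correlated between the tissues of an animal at -0.27 to 0.22, above 0.1 in 5 of 16 animals. Libraries of a group all differed beyond counting noise (lowest chi-square per degree of freedom 5.58 over 128 pairs).

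The planned share of CACNA1D and CACNA1C could not be computed, since CACNA1C has no row. Overlapping genes were looked up in RefSeq annotation of Sscrofa11.1, with no coordinates used. Genes named are all members, the 3 largest changes in each direction of the calcium list per comparison, and the 2 genes most like each member in islets. Of the genes this rule names, 1 is not reported here. The members and lists were chosen with earlier results of these data known.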

Additional observations from a re-analysis of the deposited data

Results flagged for a closer look

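Of 32 groups of 8 or 9 libraries (8 members in 4 groups), 7 had a library far from the others by Dixon's ratio, and all 7 were in pancreas. Chance gives about 1 in 20 for independent, normally distributed values. The 8 members were measured in the same libraries, so the 32 groups are not independent and that rate does not apply to them directly. High replicate 7 (animal 16CS60) stood above its group for CACNA1A (49.1 CPM), CACNA1D (43.1 CPM), CACNB2 (14.6 CPM) and SLC8A3 (5.39 CPM), and its pan-endocrine marker sum, 894 CPM, was the highest of the High pancreas libraries. Low replicate 9 (animal 15LS30) stood above its group for CACNA1D (97.1 CPM) and CACNB2 (36.6 CPM), with a pan-endocrine sum of 4458 CPM. High replicate 6 (animal 15LS29) stood out for CACNA1H alone (65.6 CPM).

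The density difference was not the same in the 2 tissues, by edgeR's test of the difference, for 39.9% of 14337 genes and for 5 members: SLC8A3 (3.65), ATP2A3 (2.25), CACNA1A (1.29), CACNB2 (0.89) and ATP2A2 (-1.18, all on the log2 scale). The same held for CACNG7 (5.80), CACNA1S (5.17), SLC24A4 (5.08), SARAF (-1.74), PPP3CA (-1.59) and CALM2 (-1.49). SLC8A3 alone of these 11 genes passed without the shallow pancreas libraries (2.29), a fit with only 2 Low pancreas libraries. CACNB2 did not pass with the animal as a replicate block (0.22, edgeR adjusted p = 0.763), a fit that also left out Low pancreas replicate 9.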

How the results depend on the processing

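Between the tissues the 8 member calls held in all 35 fits that left out 1 library and in 13 of 14 other alternatives, the animal as a replicate block included (8 called), and the exception was SLC8A3 among libraries labelled Low. Within pancreas the number of members called, 7 over all libraries, ran from 5 to 8 with 1 library left out and was 4 with no low-count filter, with a filter of 1 CPM and with animals of the same label in both tissues (4 members tested). It was 0, as was the number of other calcium handling genes called (35 over all libraries), in 5 alternatives: without animals whose code begins with 14, without the pancreas libraries under 1000000 counts, with acinar level or log2 library total as a covariate, and with the label of the other tissue. All genes called in pancreas numbered 4283, but 10836 with no filter, 7587 with a filter of 1 CPM, 2542 with library totals only and 0 in those 5. Signs turned with acinar level as a covariate for ATP2A2 (-0.54), SARAF (-0.27), CALM2 (-0.71) and SLC24A4 (0.18), and with log2 library total for ATP2A2 (-0.17) and CALM2 (-0.28). The members called for the difference between tissues, 5 over all libraries, numbered 3 with no filter and 1 (SLC8A3) without animals of code 14 or without shallow libraries, where 0 of the other calcium handling genes (38 over all libraries) were called. All genes called there numbered 5718, but 8812 with no filter. The animal as a replicate block changed no member's call besides those of CACNB2 and SLC8A1 in that difference. Within islets every alternative called 0 members. The cause of these changes was not tested. Depth limits the shallow pancreas libraries most, where single members had 0 to 20 counts.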

Other observations

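The islet library with no density label (animal 12AS51) entered no comparison of density labels. By library total it was the lowest of the 18 islet libraries for all 8 members, from 1.04 CPM for SLC8A1 to 74.7 CPM for CACNA1A. Its TMM factor was 0.134, and on the TMM scale CACNA1A (558 CPM), CACNA1H (470 CPM) and CACNB2 (134 CPM) were instead the highest of the 18, while SLC8A1 (7.80 CPM) and SLC8A3 (11.1 CPM) remained the lowest.

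Across the 17 labelled islet libraries the members were also set beside summed cell type markers on the TMM scale. CACNB2 had a Pearson correlation of -0.67 with beta cell markers (Spearman -0.58) and 0.59 with pan-endocrine markers (Spearman 0.38). SLC8A1 had 0.44 with beta cell markers and -0.66 with alpha cell markers (Spearman -0.59). CACNA1H had between -0.03 and 0.06 with the beta, alpha and pan-endocrine sums. All values of a library share its scaling factor.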
